A study of Mus musculus with 8 samples.

Results

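The regulators of maternal DNA methylation were followed through mouse oocyte maturation and after overexpression of the mRNA decay adaptor BTG4. The group was defined by gene symbol. It comprised 10 genes, namely *Dnmt1*, *Uhrf1*, *Dnmt3a*, *Dnmt3b*, *Dnmt3l*, *Tet3*, *Tdg*, *Dppa3*, *Zfp57* and *Trim28*. Of these, 9 were found among the 15962 genes shared by all 8 libraries, and all 9 passed the expression filter that left 13968 genes for testing. *Tdg*, which encodes the glycosylase that removes oxidised methylcytosine, was not analysed here.

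All oocytes came from 6-week-old Crl:CD1 (ICR) females, for which the authors describe gonadotropin treatment. They state that the control GV and MII oocytes were taken from oocytes cultured in vitro. Each library was made from 15 oocytes by Smart-seq2 with oligo(dT) priming, and each group had 2 libraries. GV oocytes are fully grown oocytes held in meiotic prophase before maturation, and MII oocytes are mature oocytes arrested at the second metaphase. The labels name no injection for either of these control groups. The Btg4wt and Btg4tm groups were MII oocytes that had been microinjected with capped RNA encoding either wild-type BTG4 or BTG4 in which 3 phosphorylated residues were replaced by alanine. The RNA was transcribed from a Myc-pCS2+ vector, and the injected oocytes carried their own *Btg4* gene. Thus Btg4tm and Btg4wt differ by design in the substituted residues, whereas injected and uninjected oocytes differ by the injection as well. Total *Btg4* mRNA also differed between the injected groups, as given below, so residues and amount cannot be told apart here. BTG4 brings the CCR4-NOT deadenylase to maternal mRNAs during maturation. A library primed with oligo(dT) reads mRNAs through their poly(A) tails, so fewer molecules and shorter tails cannot be told apart, and neither can fewer cells holding an mRNA and less mRNA per cell. Nothing in the sources used here states that the 2 libraries of a group came from separate animals, and the p-values measure the spread between these libraries.

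DNA methylation in the oocyte is laid down during growth, when the catalytically inactive DNMT3L stimulates the methyltransferase DNMT3A. DNMT1 copies methylation onto newly replicated DNA after UHRF1 has recognised the half-methylated site, and the mouse oocyte stores a DNMT1 form with its own first exon. After fertilisation TET3 oxidises methylcytosine, mainly in the paternal genome, and DPPA3 (also called STELLA) protects the maternal genome. ZFP57 recruits TRIM28 to imprinted control regions, which keep their parental methylation through this period. The mRNAs of these factors are therefore part of the store that the mature egg hands to the embryo. The values given here are mRNA levels summed over all isoforms of a gene, and neither protein nor methylation was measured.

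The mRNA of *Tet3* differed between stages and between the injected groups. It was 3.01-fold higher in MII than in GV oocytes and was 0.465 of the Btg4wt level in Btg4tm, while *Dnmt3l* took the opposite course, at 0.475 of the GV level in MII and 2.15-fold higher in Btg4tm than in Btg4wt. *Dnmt1* was at 0.495 of the Btg4wt level in Btg4tm. *Dppa3*, the most abundant of the group, was at nearly the same level in both injected groups. These folds come from the log2(TPM + 1) scale after libraries were scaled to each other through the median gene, and they are changes relative to that gene. All tests used limma over the whole table. A gene was called where its Benjamini-Hochberg adjusted p was under 0.05 and its log2 fold change was over 1 in either direction.

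The annotated 3′ ends of these mRNAs are shown first, because cytoplasmic polyadenylation elements there take part in setting tail length in the maturing oocyte. The motifs TTTTAT and TTTTAAT, called CPE-like here, were searched on the sense strand in the last 100 bases of the longest coding transcript, and the polyadenylation signals AATAAA and ATTAAA in the last 50 bases. CPE-like motifs were found in *Dnmt1*, *Dnmt3a* and *Tet3*, and a signal was found in 8 of the 9 genes, the window of *Dnmt3l* being the exception. Among the 11013 tested genes with such a coding 3′ end, 19.56% held a CPE-like motif and 79.02% a signal. The stretches around the CPE-like motifs are given 5′ to 3′ with the motifs in capitals, followed by the signals, also in capitals, of *Uhrf1* and *Dppa3*, which had no CPE-like motif in the window. All lie in the last exon, in the 3′ untranslated region.
Dnmt1, GRCm38 chr9:20907239-20907268, minus strand: gacttgatgtagTTTTATatgttgtaatat
Dnmt3a, GRCm38 chr12:3914377-3914406, plus strand: tgtttatatataTTTTATtttcgctataaa
Tet3, GRCm38 chr6:83362384-83362413, minus strand: gggtgTTTTAATAAATTTTATatttatttt
Uhrf1, GRCm38 chr17:56323455-56323484, plus strand: atattgcAATAAAATAAAattctggccggg
Dppa3, GRCm38 chr6:122630242-122630271, plus strand: ccagaaatttgtAATAAAagcatttttgtt
In *Tet3* one CPE-like motif overlaps the signal AATAAA and the other follows it directly, so that the capitals hold all 3. In *Uhrf1* the signal occurs as overlapping copies. As a description of all genes, the 2154 with a CPE-like motif had a median log2 fold change of 0.48 in MII over GV and of -0.20 from Btg4wt to Btg4tm, against -0.09 and 0.02 for the 8859 without one. Their median transcript lengths were 3203 and 2962 bases. A match to these letters is no evidence that a site is used.

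*Dnmt1* (chr9:20907209-20959888, minus strand) encodes the maintenance methyltransferase. Its level was 225 and 299 scaled TPM in GV oocytes, 334 and 311 in MII, 405 and 384 in Btg4wt, and 166 and 229 in Btg4tm. Both Btg4tm libraries lay below all Btg4wt and MII libraries, and 1 of them also lay below both GV libraries. Between Btg4wt (395 ± 14.8, SD, n = 2) and Btg4tm (197 ± 44.9) the log2 fold change was -1.01 (SE 0.18, limma adjusted p = 0.00184), and *Dnmt1* was called lower. The call stood just past the fold minimum. Without Btg4tm replicate 1 the change was -0.78, and without Btg4wt replicate 1 it was -0.98, and neither was called. From GV to MII the log2 fold change was 0.31 (SE 0.18, limma adjusted p = 0.157), although the groups did not overlap.

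*Uhrf1* (chr17:56303321-56323486, plus strand) encodes the partner that brings DNMT1 to half-methylated sites. It was at 147 and 156 scaled TPM in GV, 218 and 204 in MII, 257 and 236 in Btg4wt, and 180 and 179 in Btg4tm. The Btg4tm libraries lay between the GV and the MII libraries and were close to each other. Its log2 fold change was 0.47 in MII over GV (SE 0.10, limma adjusted p = 0.00276) and -0.45 from Btg4wt to Btg4tm (SE 0.10, limma adjusted p = 0.00485). Both were below the fold minimum. Of the *Uhrf1* transcript, 37.8% is shared with 2 other annotated genes in stretches of 50 bases, so reads from there may have been dropped or assigned elsewhere. The ratio of *Dnmt1* to *Uhrf1* within a library does not depend on the scaling. It was 1.52 and 1.92 in GV, 1.53 and 1.52 in MII, 1.58 and 1.63 in Btg4wt, and 0.918 and 1.28 in Btg4tm. The Btg4tm ratios were the lowest of the 8.

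**Figure D1:**
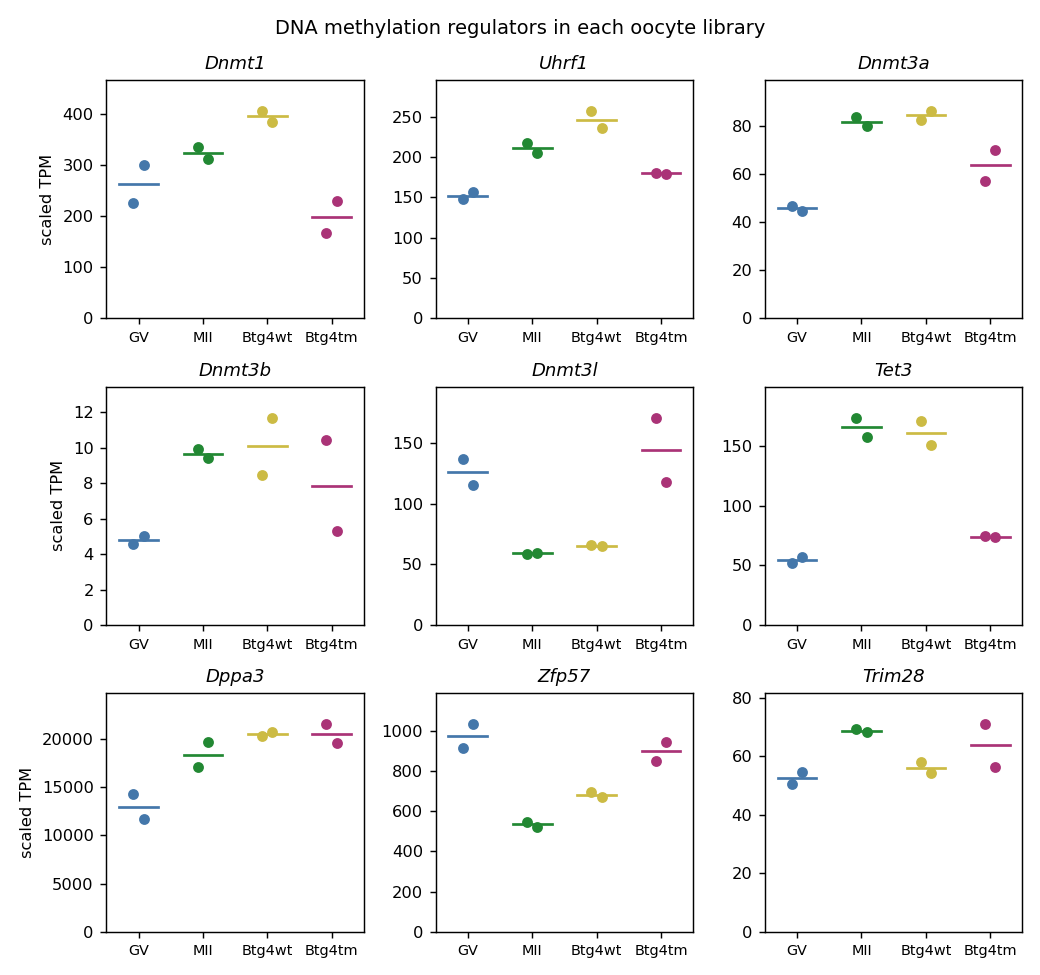
Levels of the 9 regulators in each library, in scaled TPM on the vertical axes, with the 4 groups along the horizontal axes; each point is 1 library and each bar the mean of the 2. The *Tet3* libraries of MII and Btg4wt sit between 151 and 174, above those of GV and Btg4tm, which sit between 52.1 and 74.2.

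*Dnmt3a* (chr12:3806007-3914443, plus strand), the methyltransferase of oocyte growth, was at 46.7 and 44.7 scaled TPM in GV, 83.7 and 80.1 in MII, 82.6 and 86.3 in Btg4wt, and 57.3 and 70.0 in Btg4tm. The Btg4tm libraries lay between GV and the other MII oocytes without overlapping either. Its log2 fold change was 0.83 in MII over GV (SE 0.12, limma adjusted p = 0.000483) and -0.41 from Btg4wt to Btg4tm (SE 0.12, limma adjusted p = 0.0227), both below the fold minimum. The adjusted p of the latter was 0.0619 when limma was run on the 4 injected libraries alone and 0.0543 without its trend.

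*Dnmt3l* (chr10:78041947-78063622, plus strand), the stimulating cofactor, went the other way. It was at 137 and 116 scaled TPM in GV, 58.8 and 59.6 in MII, 65.7 and 65.4 in Btg4wt, and 171 and 118 in Btg4tm. The Btg4tm libraries overlapped those of GV, and both were above all MII and Btg4wt libraries. Its log2 fold change was -1.08 in MII over GV (SE 0.17, limma adjusted p = 0.000749) and 1.10 from Btg4wt to Btg4tm (SE 0.17, limma adjusted p = 0.000962), and *Dnmt3l* was called in both. Single libraries carried both calls past the fold minimum, since the values were -0.96 without GV replicate 1 and 0.84 without Btg4tm replicate 1. Quantile normalization also ended both, at -0.86 and 0.90, but it moved the median of all genes by 0.27 and -0.18, and relative to that median the changes were -1.12 and 1.08.

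The genes of the DNMT3A-DNMT3L pair can be set against each other within a library. *Dnmt3l* was 2.92 and 2.59 times *Dnmt3a* in GV, 0.702 and 0.744 times in MII, 0.796 and 0.758 times in Btg4wt, and 2.99 and 1.68 times in Btg4tm. The ratio was thus lower in MII than in GV, and in both Btg4tm libraries it was above that of all MII and Btg4wt libraries. Which gene had more mRNA cannot be read from this ratio, since the gene lengths behind the TPM are not given. *Dnmt3b* (chr2:153649450-153687730, plus strand), the other active methyltransferase of this family, was the least abundant of the group. It was at 4.56 and 5.02 scaled TPM in GV, 9.89 and 9.41 in MII, 8.47 and 11.7 in Btg4wt, and 10.4 and 5.32 in Btg4tm. Its Btg4tm libraries overlapped those of Btg4wt, with a log2 fold change of -0.37 (95% interval -1.02 to 0.28, limma adjusted p = 0.313). The change from GV to MII was 0.88 (SE 0.28, limma adjusted p = 0.0250), below the fold minimum. Its near relative *Dnmt3c* shares 20.4% of the transcript in stretches of 50 bases, which makes these low values uncertain.

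**Figure D2:**
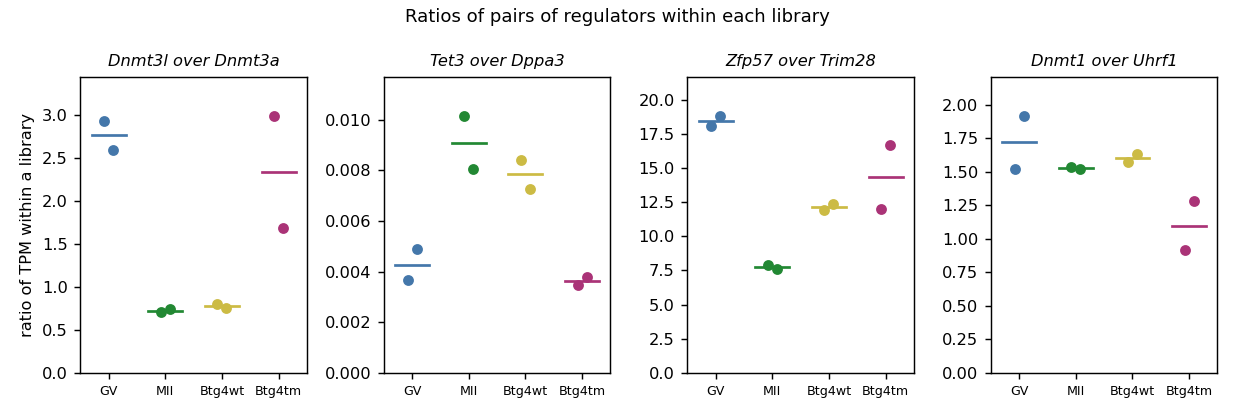
Ratios of 2 mRNA levels within each library, on linear axes from 0, for *Dnmt3l* over *Dnmt3a*, *Tet3* over *Dppa3*, *Zfp57* over *Trim28* and *Dnmt1* over *Uhrf1*; each point is 1 library and each bar the mean of the 2. *Dnmt3l* over *Dnmt3a* is higher in all GV and Btg4tm libraries than in any MII or Btg4wt library.

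*Tet3* (chr6:83362373-83459084, minus strand) encodes the oxidase that acts on methylcytosine in the zygote. It was at 52.1 and 56.8 scaled TPM in GV, 174 and 158 in MII, 171 and 151 in Btg4wt, and 74.2 and 73.9 in Btg4tm. No group overlapped another except MII and Btg4wt, and Btg4tm stood closer to GV than to the other MII oocytes. From GV (54.5 ± 3.33, SD, n = 2) to MII (166 ± 11.4) the log2 fold change was 1.59 (SE 0.11, limma adjusted p = 8.69e-06), and *Tet3* was called higher. From Btg4wt (161 ± 14.1) to Btg4tm (74.1 ± 0.245) it was -1.10 (SE 0.11, limma adjusted p = 9.22e-05), and *Tet3* was called lower. Leaving out any 1 of the 8 libraries gave ranges of 1.52 to 1.66 and of -1.19 to -1.02, past the fold minimum throughout. Only libraries of the groups compared can move these values. Scaling to the mitochondrially encoded genes instead gave -0.61 in MII over GV and -0.03 from Btg4wt to Btg4tm. Relative to the median of all genes under that scaling, these were 1.13 and -0.90. Between Btg4tm and GV the difference was 0.44 (SE 0.11, limma adjusted p = 0.0420), below the fold minimum. *Tet3* is also the regulator whose 30-base window holds both CPE-like motifs, as printed above. Their part in these changes was not tested.

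*Dppa3* (chr6:122626410-122630272, plus strand), which encodes the protector of the maternal genome, ranked between 3 and 5 among the 13968 genes by mean level in each group. It made up 1.30% to 2.13% of all listed TPM in a library. Its level was 14249 and 11664 scaled TPM in GV, 17114 and 19622 in MII, 20271 and 20711 in Btg4wt, and 21486 and 19602 in Btg4tm. All GV libraries were below all others, and the injected groups overlapped. In MII over GV the log2 fold change was 0.51 (SE 0.14, limma adjusted p = 0.0120), below the fold minimum, and under quantile normalization it was -0.25. From Btg4wt to Btg4tm it was 0.00 (95% interval -0.31 to 0.32, limma adjusted p = 0.991), an interval that leaves room for a change of up to 0.32 in either direction. Relative to GV, *Dppa3* was higher in Btg4tm by 0.67 (SE 0.14, limma adjusted p = 0.0213). That difference turned on the scaling, being 0.05 under quantile normalization and 0.04 with mitochondrial scaling. Relative to the median of all genes these were 0.07 and 0.68. Of the short *Dppa3* transcript, 51.6% is shared with 3 other annotated genes in stretches of 50 bases. The ratio of *Tet3* to *Dppa3* was 0.00366 and 0.00487 in GV, 0.0102 and 0.00804 in MII, 0.00842 and 0.00728 in Btg4wt, and 0.00345 and 0.00377 in Btg4tm. This ratio did not overlap between GV and MII or between Btg4wt and Btg4tm, and it overlapped between Btg4tm and GV.

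*Zfp57* (chr17:37001163-37010635, plus strand), the zinc finger protein that reads methylated imprints, was at 911 and 1030 scaled TPM in GV, 548 and 519 in MII, 694 and 668 in Btg4wt, and 850 and 943 in Btg4tm. Only Btg4tm and GV overlapped. Its log2 fold change was -0.86 in MII over GV (SE 0.10, limma adjusted p = 0.000150) and 0.39 from Btg4wt to Btg4tm (SE 0.10, limma adjusted p = 0.0129), both below the fold minimum. Without the trend of limma the latter had an adjusted p of 0.0516. With TPM as deposited the former was -1.02 and with quantile normalization -1.03, past that minimum. Whether *Zfp57* passed the minimum thus turned on the scaling.

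*Trim28* (chr7:12999114-13031035, plus strand), the corepressor that ZFP57 recruits, varied little. It was at 50.5 and 54.7 scaled TPM in GV, 69.3 and 68.2 in MII, 58.0 and 54.1 in Btg4wt, and 70.9 and 56.5 in Btg4tm. Its log2 fold change was 0.38 in MII over GV (SE 0.13, limma adjusted p = 0.0325, or 0.0653 without its trend) and 0.17 from Btg4wt to Btg4tm (95% interval -0.13 to 0.47, limma adjusted p = 0.306), where the groups overlapped. *Zfp57* was 18.1 and 18.8 times *Trim28* in GV, 7.91 and 7.61 times in MII, 12.0 and 12.3 times in Btg4wt, and 12.0 and 16.7 times in Btg4tm. The ratio was lowest in MII, where *Zfp57* was lower and *Trim28* higher than in GV.

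Over the group as a whole, 1 of the 9 regulators was called higher in MII than in GV (*Tet3*) and 1 lower (*Dnmt3l*), where 12.5% and 24.0% of all genes were called. By the adjusted p alone, 6 were higher and 2 lower, where 29.8% and 32.8% of all genes were. In Btg4tm against Btg4wt, 1 was called higher (*Dnmt3l*) and 2 lower (*Dnmt1* and *Tet3*), where 18.1% and 7.94% of all genes were called. By the adjusted p alone, 2 were higher and 4 lower, where 26.2% and 23.3% of all genes were. The groups did not overlap for 7 genes higher and 2 lower in MII (41.1% and 41.6% of all genes), and for 2 genes higher and 4 lower in Btg4tm (37.6% and 36.7%). The median log2 fold change of the 9 was 0.47 in MII over GV, where that of all genes was -0.00, and -0.37 from Btg4wt to Btg4tm, where that of all genes was 0.01.

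**Figure D3:**
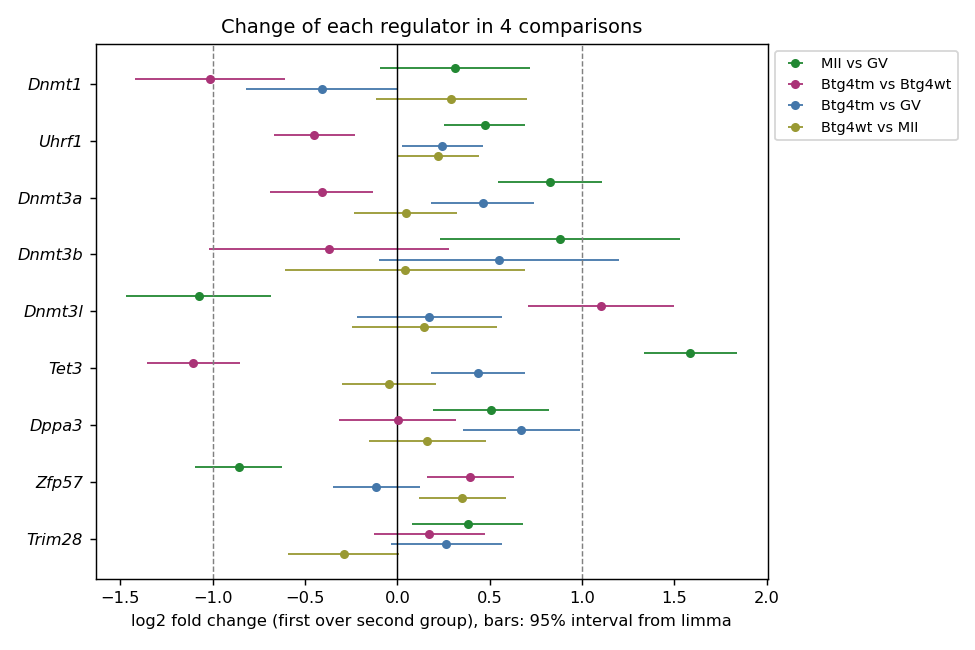
Log2 fold changes of the 9 regulators in the 4 comparisons, with 95% intervals from limma as bars and the comparisons in colours; dashed lines mark the fold minimum of 1. *Tet3* and *Dnmt3l* are past it in opposite directions in both MII against GV and Btg4tm against Btg4wt.

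The injection of wild-type BTG4 was set against uninjected MII oocytes to see what the injected control itself carries. None of the 9 regulators was called, and their log2 fold changes ran from -0.29 (*Trim28*) to 0.35 (*Zfp57*). Limma called 0 of the 13968 genes (0.00%), with 1655 at an unadjusted p under 0.05, among them 2 regulators. The groups did not overlap for 5 regulators higher and 1 lower in Btg4wt, where 24.1% and 20.8% of all genes were apart. Btg4tm was then set against GV, which differ in stage and in the injection. Again none was called (1.02% of all genes were called higher and 1.02% lower). That even split of 143 and 142 genes turned on the scaling, being 80 and 287 with TPM as deposited and 38 and 2972 with mitochondrial scaling. By the adjusted p alone, 3 were higher in Btg4tm (*Dnmt3a*, *Tet3* and *Dppa3*, where 7.66% of all genes were) and 0 were lower (3.73%). These 3 were at adjusted p of 0.0831 to 0.115 when limma was run on the 4 libraries alone, and of 0.0555 to 0.101 without its trend. The groups did not overlap for 6 regulators higher and 0 lower in Btg4tm, where 25.3% and 34.2% of all genes were apart. For *Dnmt3l* the difference was 0.17 (95% interval -0.22 to 0.57), for *Zfp57* -0.11 (-0.35 to 0.12) and for *Dnmt1* -0.41 (-0.82 to -0.00), and these intervals do not show that the levels were alike.

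**Figure D4:**
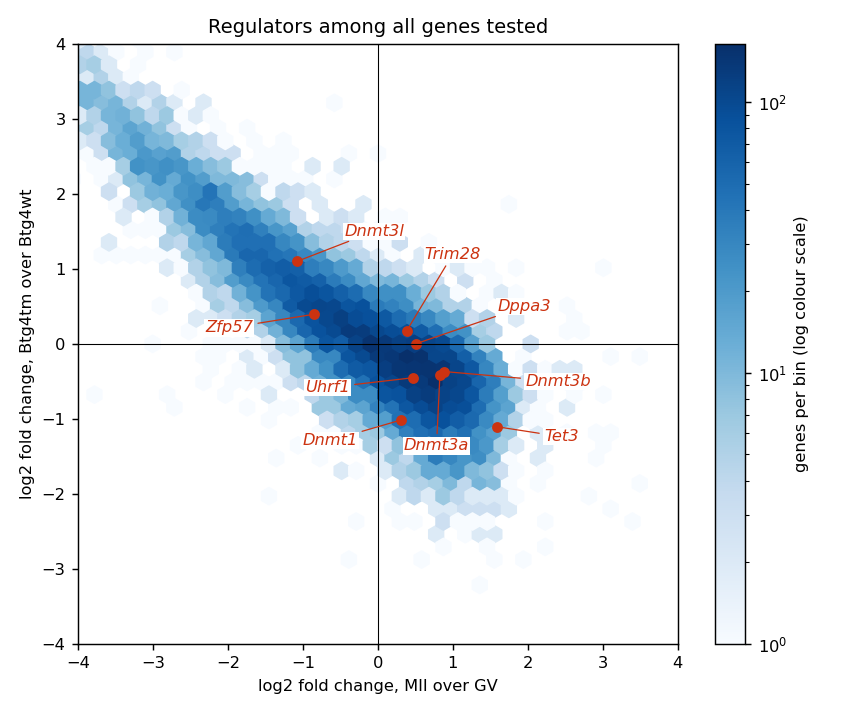
Log2 fold change in MII over GV (horizontal axis) and from Btg4wt to Btg4tm (vertical axis), with the 9 regulators as red points over all 13968 tested genes, binned and shaded by number on a log scale; both axes run from -4 to 4 and 173 genes lie outside. *Dnmt3l* and *Zfp57* lie in the upper left and *Tet3* at the lower right, within the main body of genes.

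A wider list of 47 other genes of DNA methylation was examined in the same fit, of which 44 were tested. In Btg4tm against Btg4wt 2 were called higher and 3 lower (18.1% and 7.94% of all genes), and by the adjusted p alone 6 were higher and 21 lower (26.2% and 23.3%). The median log2 fold change of the 44 was -0.39. From GV to MII 7 were called higher and 6 lower (12.5% and 24.0% of all genes), by the adjusted p alone 22 were higher and 8 lower (29.8% and 32.8%), and the median was 0.44. Of the 12 writers and cofactors, 1 was called lower in Btg4tm, close to the 7.94% of all genes, and it was *Usp7*, which encodes a deubiquitinase that stabilises DNMT1 and UHRF1. *Usp7* was at 99.5 and 116 scaled TPM in Btg4tm and 276 and 250 in Btg4wt, a log2 fold change of -1.28 (limma adjusted p = 3.76e-05), and it had been called higher from GV to MII. *Dnmt1* was called lower in the same comparison, just past the fold minimum, and a link between these calls was not tested. *Hells*, which encodes a chromatin remodeller needed for DNA methylation, rose from 33.9 and 28.4 in GV to 102 and 98.0 in MII (log2 fold change 1.66, limma adjusted p = 1.12e-05). In Btg4tm *Hells* was at 60.4 and 56.1 against 74.2 and 80.2 in Btg4wt and was not called.

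Among 16 tested genes of demethylation and base excision repair, the pathway that follows TDG, 4 were called lower in MII than in GV, and these were *Apex1*, *Neil2*, *Xrcc1* and *Polb*. That is close to the 24.0% of all genes called lower, and 1 of the 16, *Gadd45a*, was called higher (12.5%). By the adjusted p alone, 7 of the 16 were higher in MII (29.8% of all genes) and 5 were lower (32.8%). The 7 were *Tet2*, *Mbd4*, *Smug1*, *Neil3*, *Parp1*, *Lig3* and *Gadd45a*, and the 5 were *Ung*, *Apex1*, *Neil2*, *Xrcc1* and *Polb*. *Polb*, the DNA polymerase of this pathway, was at 55.7 and 56.3 scaled TPM in GV, 18.7 and 16.0 in MII, 22.2 and 23.6 in Btg4wt, and 41.6 and 50.4 in Btg4tm. Its Btg4tm libraries lay above those of MII and Btg4wt and below those of GV. Its log2 fold change was -1.64 in MII over GV (limma adjusted p = 2.50e-05) and 0.97 from Btg4wt to Btg4tm (limma adjusted p = 0.000661), the latter just under the fold minimum. *Xrcc1*, a scaffold protein of the same repair, fell from 24.9 and 36.5 in GV to 9.88 and 9.75 in MII (log2 fold change -1.53, limma adjusted p = 0.000229). By the adjusted p alone, 5 of the 16 were higher in Btg4tm than in Btg4wt and 6 were lower, where 26.2% and 23.3% of all genes were. The 5 were *Ung*, *Apex1*, *Neil2*, *Xrcc1* and *Polb*, and the 6 were *Tet2*, *Smug1*, *Neil3*, *Parp1*, *Lig3* and *Ogt*. Of these only *Neil2*, a DNA glycosylase gene chosen here after its values were seen, was called. Thus 1 of the 16 was called higher and 0 lower, where 18.1% and 7.94% of all genes were. *Neil2* was at 0.580 and 0.739 scaled TPM in Btg4wt and at 3.07 and 3.95 in Btg4tm. *Tet2* was also low, with 1.93 scaled TPM as its highest value in any library. *Tet1* passed in neither comparison (limma adjusted p = 0.664 in MII over GV and 0.218 from Btg4wt to Btg4tm).

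The 16 tested readers and imprint factors held the largest rise and the largest fall of the list in Btg4tm. *Mbd3*, a subunit of the NuRD complex, was at 26.5 and 35.7 scaled TPM in GV, 7.04 and 5.14 in MII, 9.42 and 7.03 in Btg4wt, and 25.6 and 32.4 in Btg4tm. Its Btg4tm libraries overlapped those of GV and lay far above the other MII oocytes. The log2 fold change was -2.18 in MII over GV (limma adjusted p = 7.10e-05) and 1.70 from Btg4wt to Btg4tm (limma adjusted p = 0.000429). *Setdb1*, the histone methyltransferase that TRIM28 recruits, was at 120 and 108 in Btg4wt and 41.4 and 38.3 in Btg4tm, with a log2 fold change of -1.49 (limma adjusted p = 9.38e-05). *Ehmt1*, a histone H3 lysine 9 methyltransferase gene, was at 24.0 and 27.4 in GV, 59.6 and 59.2 in MII, 59.1 and 62.1 in Btg4wt, and 20.7 and 23.8 in Btg4tm. It was called in both comparisons, at 1.18 (limma adjusted p = 7.73e-05) and -1.41 (limma adjusted p = 5.16e-05), and its Btg4tm libraries were just below those of GV. *Ctcf*, the insulator protein gene, rose from 47.5 and 45.8 in GV to 114 and 143 in MII (log2 fold change 1.43, limma adjusted p = 7.38e-05) and overlapped between the injected groups, with 101 and 85.9 in Btg4wt and 88.5 and 107 in Btg4tm.

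Directions given here are relative to the median gene. Scaling to the mitochondrially encoded genes instead moved the median of all genes by -1.74 from GV to MII and by 0.88 from Btg4wt to Btg4tm. Their share of all TPM was 0.625% and 0.651% in GV, 2.60% to 2.71% in MII, 1.75% to 2.05% in Btg4wt and 0.765% to 1.02% in Btg4tm, and its part in the results was not tested. Relative to that median, *Tet3* stood at 1.13 and -0.90, *Dnmt3l* at -1.52 and 1.30, and *Zfp57* at -1.33 and 0.60 in the 2 comparisons. *Dnmt1* stood at -0.16 and -0.81 and *Uhrf1* at 0.01 and -0.24. Hence the sign of *Dnmt1* from GV to MII turned with the scaling even relative to the median. *Btg4* itself, read together from the endogenous gene and any injected RNA that carries a tail, averaged 2722 scaled TPM in GV, 5897 in MII, 5344 in Btg4wt and 3897 in Btg4tm. The log2 fold change of *Btg4* from Btg4wt to Btg4tm was -0.46 (SE 0.10, limma adjusted p = 0.00569), and the groups did not overlap. From MII to Btg4wt it was -0.14 (limma adjusted p = 0.625). Neither injected group exceeded uninjected MII oocytes in this total. Of 10 oocyte markers all were listed, and their summed level was 21437 to 29669 across libraries. A list of 17 cumulus and granulosa cell genes summed to between 36.6 and 49.6, mostly *Cyp19a1* and *Nr5a2*. Of its 5 defining genes, *Fshr* was listed in 4 libraries and *Inha* in all, and the sum of the defining genes was 6.32 to 10.2 in Btg4tm, 1.21 to 1.92 in Btg4wt, 2.33 to 4.64 in GV and 0 to 0.516 in MII. Its part in the results was not tested.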

How the data were processed

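The authors trimmed the reads with Trim Galore 0.6.10, aligned them to GRCm38 with HISAT2 2.2.0 and counted them on GENCODE exons with featureCounts 2.0.6. Only primary alignments with a mapping quality of at least 10 were counted, without regard to strand. Near-identical copies therefore lose reads, and strand could not be used to separate overlapping antisense genes. They deposited TPM, a share of the library per transcript length, for each gene symbol. The gene lengths behind the TPM and the filter on listed genes are not given in the sources used here. TPM keep no depth, so counting error is unknown and precision rests on 2 libraries per group. The protocol in the labels states 3 samples per group, and 2 per group were analysed here.

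The 15962 genes listed in all 8 libraries were scaled by the median of ratios (python 3.11.15) and taken as log2(TPM + 1). The filter kept genes reaching 1 TPM in 2 or more libraries for limma 3.58.1 in R 4.3.3 (eBayes with trend, 4 groups, all 8 libraries), tested on simulated data first. Groups came from the labels. Gene positions and 3′ ends came from the GENCODE annotation of GRCm38 given here. The wider list named its 3 largest called rises and falls per comparison, where their mean reached 10 scaled TPM and the groups did not overlap. Its other named genes fell outside this rule. They were the members of a count given above, with *Tet1* added beside *Tet2*. Alternatives were scaling to mitochondrial genes, quantile normalization, the unscaled TPM, a pseudocount of 0.1, a filter at 5 TPM and none, a threshold of 0.01, no fold minimum, eBayes without trend, a fit to the 4 libraries of a comparison alone, a replicate block and leaving out each library. Replicate numbers were not used to pair the libraries in the main fit. The genes and lists were chosen with earlier results of these data known. Ratios within a library and differences from the median under each scaling were added after seeing the data.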

Additional observations from a re-analysis of the deposited data

How the results depend on the processing

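Of 684 values (9 regulators, 4 comparisons, each alternative), 628 kept their direction and their side of the threshold, and 28 reversed. Of those that kept their direction, 21 passed the threshold in addition and 7 no longer passed. Calls gained or lost by a reversed value are not among the 21 and 7. Without the mitochondrial scaling these were 616 of 648, 10, 16 and 6. The cause was not tested. Many of these values kept their direction by construction. The filters, the fit to 4 libraries, the replicate block, eBayes without trend and the changed thresholds leave a fold change as it is. Leaving out a library outside the comparison does so too. In Btg4tm against Btg4wt, mitochondrial scaling called 4 regulators higher and 0 lower and 12 and 0 of the wider list, and reversed *Dnmt1* (0.069), *Uhrf1* (0.63), *Dnmt3a* (0.66) and *Dnmt3b* (0.61). In MII against GV it called 0 regulators higher and 8 lower and 0 and 39 of the wider list, and reversed *Dnmt1* (-1.90), *Uhrf1* (-1.73), *Dnmt3a* (-1.36), *Dnmt3b* (-1.05), *Tet3* (-0.61), *Dppa3* (-1.71) and *Trim28* (-1.80). It reversed *Tet3* (0.45) and *Trim28* (0.20) in Btg4wt against MII. In Btg4tm against GV it called 1 regulator lower and reversed *Uhrf1* (-0.39), *Dnmt3a* (-0.16), *Dnmt3l* (-0.46), *Tet3* (-0.19) and *Trim28* (-0.36). Calls over all genes were then 98.9% higher in Btg4tm against Btg4wt and 0.0613% higher in MII against GV, where the main shares were 69.6% and 34.3%; quantile normalization gave 53.9% and 53.4%, and TPM as deposited 68.5% and 23.6%. Quantile normalization called 0 regulators higher in Btg4tm against Btg4wt and 3 in MII against GV, and of the wider list 8 lower and 11 higher, and reversed *Trim28* (-0.075) and *Dppa3* (-0.25) respectively. With TPM as deposited *Dppa3* was -0.013 in Btg4tm against Btg4wt, 2 regulators were called lower in MII against GV and 4 of the wider list higher. In Btg4tm against Btg4wt, 5 of the wider list were called lower with the pseudocount of 0.1 and 1 higher with the filter at 5 TPM. With no fold minimum, 2 regulators were higher and 4 lower in Btg4tm against Btg4wt (wider list 6 and 21), 6 and 2 in MII against GV (wider list 22 higher), and 3 higher in Btg4tm against GV. Leaving out 1 library gave 0 to 1 regulators higher and 1 to 2 lower in Btg4tm against Btg4wt (wider list 2 to 4 and 3 to 6), and 0 to 1 lower in MII against GV (wider list 7 to 8 higher and 5 to 7 lower). Log2 fold changes that changed sign then were *Dppa3* (-0.064 to 0.068) and *Dnmt3b* (-0.79 to 0.057) in Btg4tm against Btg4wt, *Tet3* (-0.13 to 0.044) and *Dnmt3b* (-0.17 to 0.25) in Btg4wt against MII, and *Dnmt3l* (-0.094 to 0.44) in Btg4tm against GV. Deviations of same-numbered libraries correlated between -0.054 and 0.055 over 6 pairs of groups, so no shared replicate effect was seen over all genes. This cannot tell whether same-numbered libraries had a common origin. The replicate block left 1 regulator called higher and 2 lower in Btg4tm against Btg4wt. In that fit the adjusted p in Btg4tm against GV was 0.0591 for *Dnmt3a* and 0.0530 for *Tet3*. No depth limit can be given for TPM.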

Other observations

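For *Dnmt1*, *Uhrf1* and *Dppa3* the most similar profiles over the 8 libraries were looked up among 6881 genes whose mean reached 10 scaled TPM, by the Euclidean distance of log2 values centred on each gene's mean. This is a description over 8 libraries of 4 groups, with no test. Nearest to *Dnmt1* were *Gm39129* (distance 0.135), *Zfp108* (0.212) and *Jag2* (0.238). *Zfp108* was at 105 and 128 scaled TPM in Btg4tm against 237 and 248 in Btg4wt. Nearest to *Uhrf1* were *Trmt1l* (0.0969), *Mcur1* (0.158) and *Wdr37* (0.179), and all 3 were lower in both GV libraries than in any other library. Nearest to *Dppa3* were *Rab2a* (0.228), *Mterf3* (0.228) and *Mkln1* (0.251). *Rab2a*, a small GTPase gene, was at 220 and 193 scaled TPM in GV and between 311 and 329 in the other 6 libraries.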
